A study of Danio rerio with 3 samples.

Results

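Hepatocytes sequenced to depth were compared between 1 zebrafish liver with hepatocellular carcinoma (HCC) of the HepABC line and 1 liver with no HCC. The cells were chosen by their total of unique molecular identifiers (UMIs, each counting 1 captured RNA molecule), at 10000 or more per cell in these 2 libraries. Families of genes were then read over the whole ranking of the same summed UMIs, so that their values are a description. There were 1938 such cells of 2866 in HepABC HCC and 213 of 1077 in no HCC, which makes 2151 cells of the 6055 in the series. The cells just inside the limit had 10001 UMIs in HepABC HCC and 10125 in no HCC, and those just outside had 9990 and 9694. Both fish were males taken 6 months after fertilization. The HepABC fish, Tg(fabp10a-pt-beta-catenin), made activated Xenopus β-catenin in hepatocytes from the hepatocyte promoter of fabp10a. By the study's methods it carried a 7xTCF mCherry reporter of Wnt signalling, and no larval treatment is stated for it. The no HCC fish, Tg(fabp10a-flox-beta-catenin), carried the lox-switch transgene without a Cre recombinase, in which EBFP, a blue fluorescent protein, sits ahead of the same β-catenin, and it had been exposed to 10 µM 4-hydroxytamoxifen between day 3 and day 6 of larval life. A deep subset of the third library, CreLox HCC, Tg(fabp10a-CreERT2;fabp10a-flox-beta-catenin) with the same exposure, held 186 cells and is given beside some values. All 3 fish carried a β-catenin transgene. With 1 liver per group the animal, the line, the larval exposure and the tumour cannot be told apart, and no test was made.

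Hepatocytes secrete most plasma proteins, among them apolipoproteins, clotting factors, complement and carriers of iron and heme. They also make fat and sterols, break down amino acids, and modify foreign compounds for excretion. β-catenin is the transcriptional arm of Wnt signalling and a component of cell junctions, and in mammalian liver it is known for setting which of these tasks a hepatocyte takes on.

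UMIs were summed per gene over the deep cells of a library and given as counts per 1000000 UMIs (CPM) over the 11759 genes listed in both libraries, 43410370 UMIs in HepABC HCC and 3499579 in no HCC. A CPM is thus a share of the RNA counted and not an amount per cell. Intervals in brackets are exact 95% intervals for the ratio of the HepABC HCC to the no HCC level and cover counting error only. A gene with 3 UMIs stood at 0.0691 CPM in HepABC HCC and at 0.857 CPM in no HCC, so low genes were measured less well in the latter. The median cell had 20802 UMIs in HepABC HCC, where the deepest had 70958, and 17048 in no HCC, where the deepest had 23019. When 10000 UMIs were drawn from every cell, cells showed a median of 1377 genes in HepABC HCC, 1214 in no HCC and 1402 in CreLox HCC. A single cell barcode was shared by the deep cells of the 2 libraries. Doublets were not removed.

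The hepatocyte label was checked against markers. The 3 given for these cells were abundant in both libraries, with fabp10a, a fatty acid binding protein of liver, at 37076 CPM in HepABC HCC against 60572 in no HCC, tfa, transferrin, at 20178 CPM in HepABC HCC against 19804 in no HCC, and apoa1b, the main protein of high-density lipoprotein, at 41982 CPM in HepABC HCC against 45211 in no HCC. A list of 11 hepatocyte markers made up a median of 1753 of each 10000 UMIs in HepABC HCC and 2690 in no HCC. Not every deep cell carried it at that level. In no HCC 3 cells had fewer than 500 of each 10000 UMIs from the list, and in HepABC HCC 1 cell did. Immune markers reached 10 of each 10000 UMIs in 20 cells of HepABC HCC and in 4 of no HCC, and the 20 cells of HepABC HCC also held 500 or more from the hepatocyte list.

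The 3 low cells of no HCC carried RNA of other cell types. One had 4953 of each 10000 UMIs from erythrocyte markers and 77.5 from hepatocyte markers. The other 2 had 33.2 and 63.8 of each 10000 from the cholangiocyte (bile duct cell) list and 163 and 180 from the hepatocyte list. They had 43.2 and 57.1 from the thrombocyte list, and the first of them had 18.3 from the immune list. In no HCC the thrombocyte list was nearly all fn1b, a hepatocyte message, at 1120 CPM of all UMIs. Its marker gp1bb had 1.13 CPM and its others 0 UMIs, so the list does not mark thrombocytes here. For 33 of the 2972 genes compared below, 50% or more of the no HCC UMIs came from these 3 cells, 6 of them from the first cell and 27 from the other 2. Among the 33 genes were 18 that came out lower in HepABC HCC and 15 that came out higher. The haemoglobin genes belong here, since 2163 of the 2172 UMIs of hbaa1 and 1622 of the 1638 of hbba1 sat in 1 cell. So do krt4 and krt94, keratins of surface epithelia, with 86 of 88 and 124 of 128 UMIs in the pair of keratin-rich cells, and cfd, the complement protease factor D, with 364 of 371. Named genes that rest on these cells are given with that share or without the cells. "Without cells of other types" means that cells with 10 or more of each 10000 UMIs from immune, endothelial or erythrocyte markers, or under 500 from hepatocyte markers, were left out, which kept 1917 cells of HepABC HCC and 207 of no HCC.

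**Figure D1:**
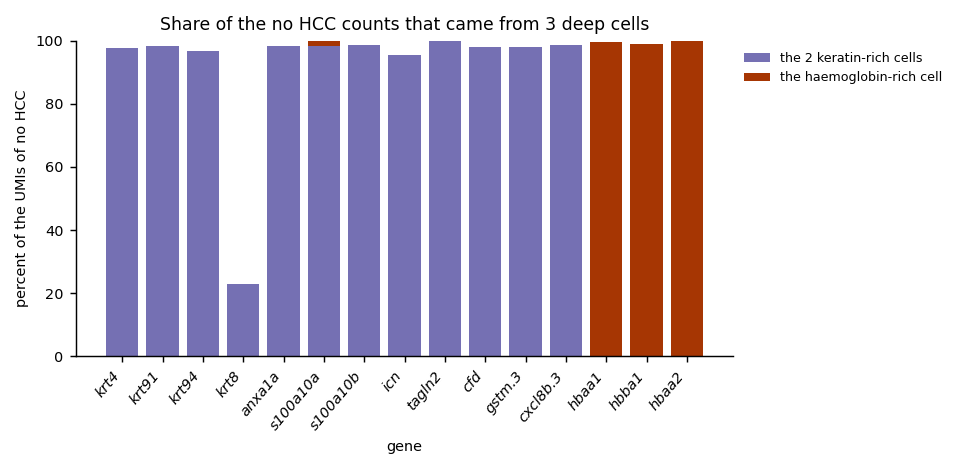
Percent of a gene's UMIs in the deep cells of no HCC (vertical axis) that came from the 2 keratin-rich cells (purple) or the haemoglobin-rich cell (brown), for 15 genes (horizontal axis). Of these genes krt8 alone had most of its UMIs in the other cells, with 22.8% in the keratin-rich pair.

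The transgenes were read next. The row for Xenopus β-catenin had 906 UMIs in HepABC HCC, 20.8 CPM of all UMIs in these cells, and 1052 UMIs or 298 CPM in no HCC, with 317 CPM in CreLox HCC. This row was therefore lower in the library labelled HepABC HCC than in the library labelled no HCC, in which EBFP lies ahead of the same sequence. By the methods the references differed, with EBFP added for CreLox HCC and no HCC only, and the row gave no check of the labels in the direction of the tumour. EBFP had 31252 UMIs in no HCC, with UMIs in 213 of 213 cells. These include the 3 cells that carried RNA of other cell types, and whether the UMIs in each cell were its own was not tested. HepABC HCC has no EBFP row. The group names used here are those of the labels.

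Of the 2972 genes with a mean CPM of at least 10 over the pair of libraries, 602 were at least 2-fold higher in HepABC HCC, which is 20.3% of them, and 271 were at least 2-fold lower, which is 9.12%. Over all these genes the log2 of HepABC HCC over no HCC had a median of 0.33, and 10% of genes lay below -0.91 and 10% above 1.44. Counting error was small beside this spread. The interval lay above 1 for 1514 genes, below 1 for 758, and held 1 for 700. A 10-fold difference was reached by 50 genes in each direction. The balance of higher and lower genes depended on the scale. The 20 most abundant genes of each library held 34.8% of UMIs in HepABC HCC and 44.1% in no HCC. With trimmed mean (TMM) factors of 1.12 and 0.896, the median moved to -0.01 and the counts to 339 higher and 433 lower, so that 43.9% of called genes were higher in place of 69.0%. Family medians are therefore given relative to the median of all genes, which such a scaling does not move, and single genes are given by their CPM in each library. Of the genes compared, 1209 belonged to at least 1 of 50 lists of gene families. The filter let in 419 genes that were under 10 CPM in no HCC and 167 that were so in HepABC HCC, and such genes had to differ. The counts of family members below are to be read against the 20.3% higher and 9.12% lower of all genes.

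**Figure D2:**
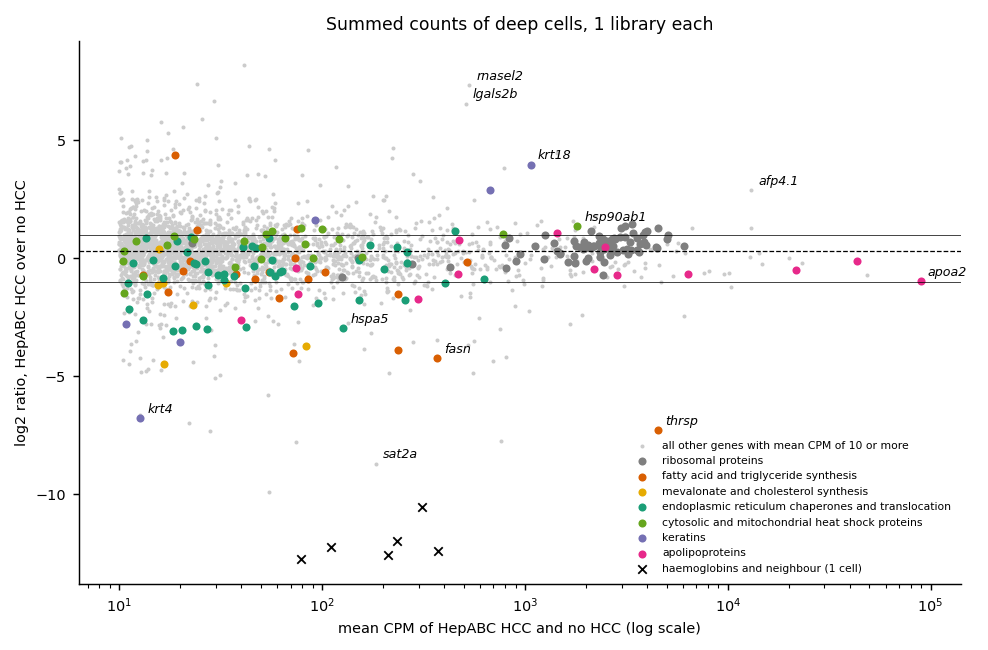
Log2 ratio of summed CPM, HepABC HCC over no HCC (vertical axis), against the mean CPM of the 2 libraries (horizontal log axis) for 2972 genes, with 7 gene families in colour. Solid lines mark a 2-fold difference and the dashed line the median of all genes, 0.33. thrsp stands at -7.28, krt18 at 3.97, and the haemoglobin crosses rest on 1 cell of no HCC.

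Across the 50 families the medians ran from -1.46 for sterol synthesis to 3.25 for the S100 genes, both relative to all genes on the log2 scale. In 16 families the median lay at least 0.5 below that of all genes and in 4 at least 0.5 above. The lower side held lipid synthesis, apolipoproteins, lipid-binding proteins, chaperones of the endoplasmic reticulum (ER), conjugating enzymes, cytochromes P450, complement and the mitochondrial genome. It also held clotting factors, bile acid synthesis and sterol export, gluconeogenesis and glycogen, ABC transporters, tubulins with 5 genes compared, and keratins. The keratin median rested on cells of other types in no HCC and lay 2.93 above that of all genes without them. The upper side held S100 genes and secreted RNases and lysozymes, each with 3 genes compared, actin and motility genes, and transcription factors of hepatocytes. In the sterol list 3 of 7 members passed the filter through no HCC only. Among the hepatocyte transcription factors 6 of 20 passed it through HepABC HCC only.

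**Figure D3:**
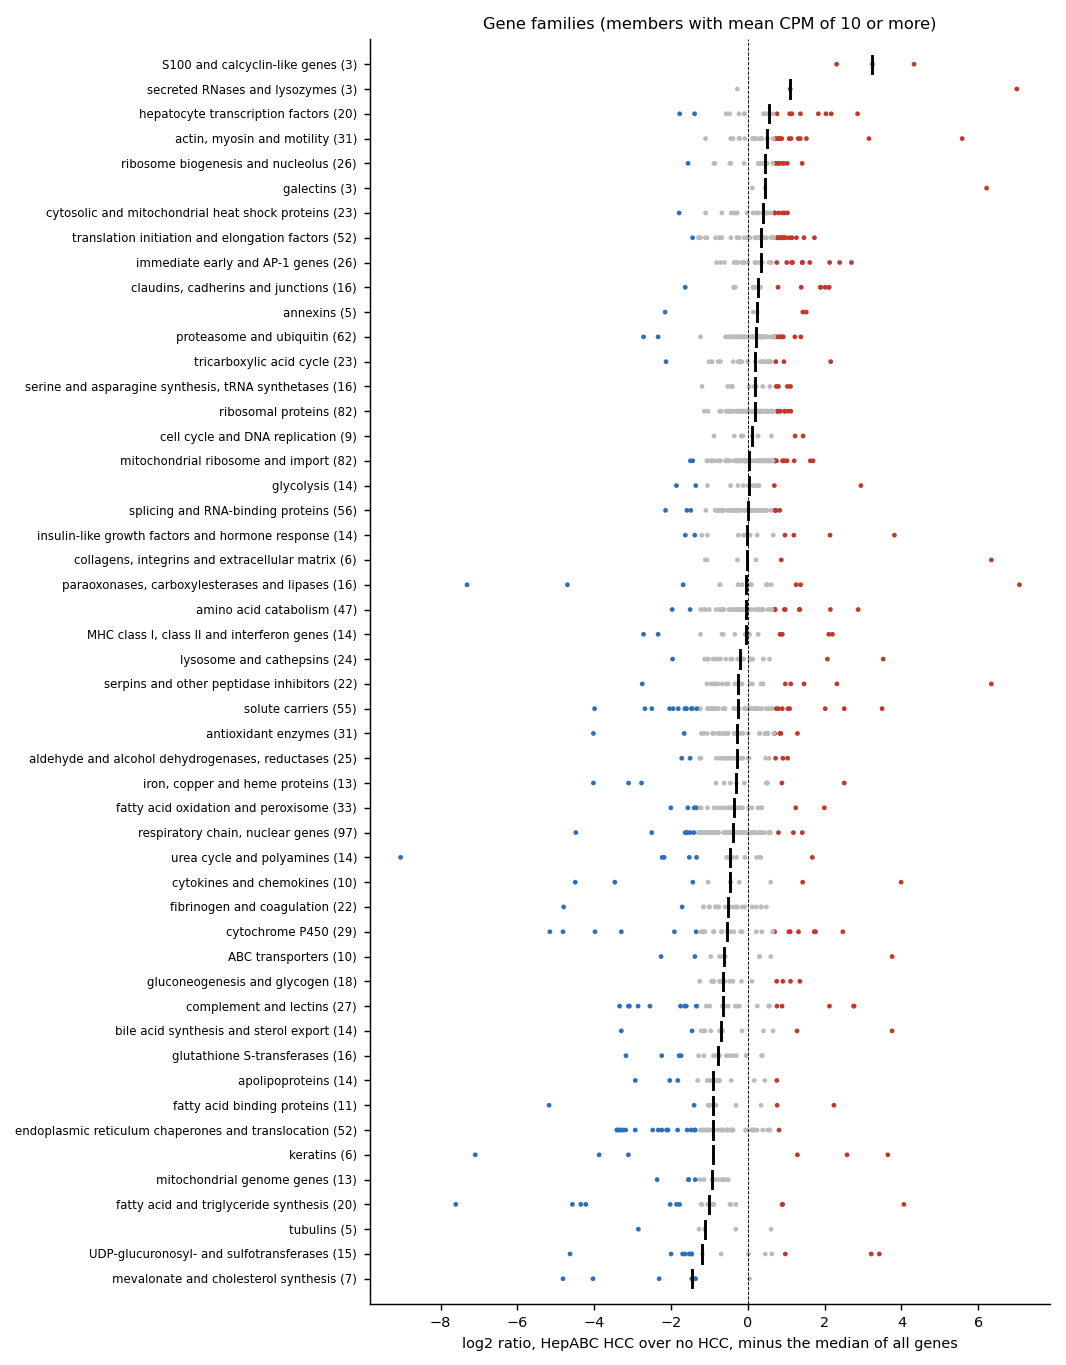
Each point is a gene with a mean CPM of at least 10, placed by its log2 ratio of HepABC HCC to no HCC minus the median of all genes (horizontal axis) in its family (vertical axis, number of genes in brackets). Red points were at least 2-fold higher and blue points at least 2-fold lower by CPM, and black bars are family medians, from -1.46 at the bottom to 3.25 at the top.

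Messages of fat synthesis were lower in HepABC HCC, and among them was the third largest loss of CPM of any gene, that of thrsp. The list of fatty acid and triglyceride synthesis summed to 1371 CPM in HepABC HCC, 12016 in no HCC and 2353 in CreLox HCC. Most of the no HCC sum was thrsp alone. thrsp, a nuclear regulator of lipogenic genes in mammals, had 58.3 CPM in HepABC HCC against 9052 in no HCC and 346 in CreLox HCC, a ratio of 0.00644 (0.00618 to 0.00671). fasn, fatty acid synthase, had 37.2 against 703 CPM, acaca, which makes its substrate malonyl-CoA, 29.9 against 444 CPM, and elovl6, which lengthens its product, 8.32 against 135 CPM. In CreLox HCC these 3 stood at 167, 171 and 139 CPM. acsbg2, an acyl-CoA synthetase outside the list, went with them at 1.91 against 106 CPM. Of 20 members compared 7 were at least 2-fold lower and 3 higher, against 9.12% and 20.3% of all genes. The median was -1.01 relative to all genes. Of the 20, 3 were under 10 CPM in HepABC HCC, elovl6 among them, and 1 was so in no HCC. The 3 higher members were cideb, a lipid droplet protein, at 105 against 44.9 CPM, elovl5, which lengthens polyunsaturated fatty acids, at 33.9 against 14.6 CPM, and elovl1b, an elongase of very long chains, at 36.0 against 1.71 CPM, on 6 UMIs in no HCC, 5 of them in the keratin-rich pair of cells, and with 36.0 against 0.293 CPM, on 1 UMI, without cells of other types. fads2, the desaturase of polyunsaturated fatty acids and an abundant member, was close to level by CPM at 492 against 542 CPM.

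Most compared members of the sterol synthesis list were also lower in HepABC HCC. Of 7 members that passed the filter, of 26 listed in both libraries, 6 were at least 2-fold lower, against 9.12% of all genes. Of the 7, 3 were under 10 CPM in HepABC HCC and passed through no HCC, so the count is no support for a difference of the list. The list also held insig1 and the lipoprotein receptor ldlra, which are not enzymes of synthesis. cyp51, which demethylates lanosterol, had 1.43 against 32.0 CPM, and insig1, which holds back the sterol-sensing machinery in mammals, had 11.9 against 156 CPM. nsdhl, a later enzyme of the pathway, had 9.33 against 36.9 CPM. The exception was tm7sf2, a sterol reductase, at 17.7 against 13.7 CPM. CreLox HCC differed from HepABC HCC here, since cyp51 stood at 54.5, insig1 at 160.5 and nsdhl at 35.5 CPM there, and the list summed to 739.8 CPM against 139.5 in HepABC HCC and 458 in no HCC.

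Fat burning moved less. Of 33 genes of fatty acid oxidation and peroxisomes 4 were lower and 2 higher, against 9.12% and 20.3% of all genes. The median was -0.37 relative to all genes. scp2a, a sterol carrier and the most abundant of the list, had 636 against 1337 CPM. Both higher members were carnitine palmitoyltransferases, which admit fatty acids to mitochondria. cpt1b had 31.4 against 6.29 CPM and cpt1ab 23.0 against 7.72 CPM. Both were under 10 CPM in no HCC and passed the filter through HepABC HCC. Among 14 genes of bile acid synthesis and sterol export, abca1b, a cholesterol exporter, was higher at 19.4 against 1.14 CPM, on 4 UMIs in no HCC, and nr1h3, the oxysterol receptor, at 33.9 against 11.1 CPM. cyp46a1.2, a sterol hydroxylase, was lower at 3.62 against 28.3 CPM.

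**Figure D4:**
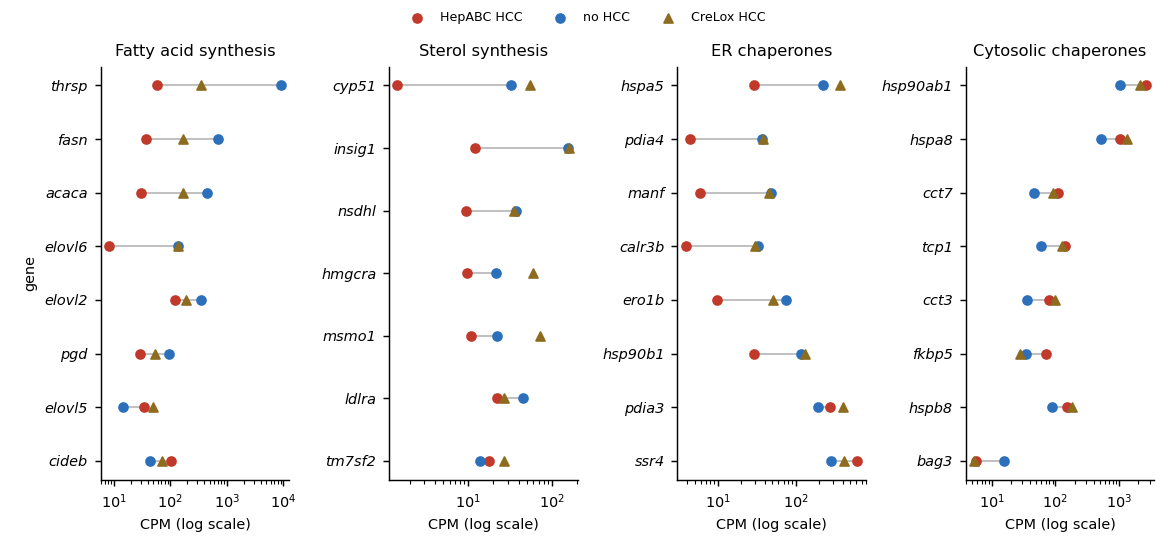
CPM (horizontal log axis) of members of 4 families (vertical axis) in the deep cells of HepABC HCC (red), no HCC (blue) and CreLox HCC (brown triangles), with a grey line joining HepABC HCC to no HCC. thrsp runs from 58.3 in HepABC HCC to 9052 in no HCC, and hspa5 and hsp90ab1 lie on opposite sides of no HCC.

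Lipid carriers in blood and cytosol took a smaller share in HepABC HCC. The 15 apolipoproteins held 13.5% of UMIs in HepABC HCC, 20.8% in no HCC and 11.6% in CreLox HCC. The largest of them was apoa2, the second protein of high-density lipoprotein and the most abundant message of both libraries, with 60050.2 CPM in HepABC HCC against 118597 in no HCC. apoc1, an inhibitor of lipoprotein uptake, had 17985 against 25253 CPM. Of 14 compared, 3 were at least 2-fold lower and 1 was higher, against 9.12% and 20.3% of all genes. apoa4b.2 was the lowest at 11.3 against 68.9 CPM, and apoa4b.1 the higher one at 1965 against 929 CPM. apoeb, the zebrafish apolipoprotein E known as a receptor ligand, also stood above the all-gene median at 598 against 351 CPM. Among the fatty acid and retinol binding proteins, fabp7a was the lowest at 37.4 against 1078 CPM, while rbp4, the retinol carrier of plasma, was higher at 2004 against 942 CPM. fabp2, the intestinal type, was higher at 74.5 against 12.6 CPM, with 40.9% of its no HCC UMIs in 1 cell.

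Chaperones of the ER were mostly lower relative to all genes. Of 52 genes of ER folding and translocation 17 were at least 2-fold lower in HepABC HCC and 1 was higher, against 9.12% and 20.3% of all genes. Of the 52, 9 were under 10 CPM in HepABC HCC and passed the filter through no HCC, calr3b, pdia4 and manf among them, so the count is no support for a difference of the list. hspa5, or BiP, the main chaperone of the ER, had 28.7 CPM in HepABC HCC against 225 in no HCC and 368 in CreLox HCC. The lowest ratios belonged to calr3b, a calreticulin that binds sugar-tagged proteins, at 3.87 against 32.9 CPM, pdia4, a disulfide isomerase, at 4.40 against 36.6 CPM, and manf, a small secreted ER stress protein, at 5.97 against 48.3 CPM. hsp90b1, the ER form of Hsp90, had 29.0 against 116 CPM. The higher member was ssr4, part of the translocon-associated complex, at 621 against 282 CPM. The other chaperone list took cytosolic and mitochondrial heat shock proteins together. In it hsp90ab1, the constitutive cytosolic Hsp90, had 2611 CPM in HepABC HCC against 1018 in no HCC, tcp1, a subunit of the TRiC chaperonin that folds actin and tubulin, had 140.4 against 60.0 CPM, and bag3, a stress-induced cochaperone, was the only one of 23 at least 2-fold lower, at 5.60 against 15.4 CPM. In this list 6 were higher, near the 20.3% of all genes. Of the 23, 2 were under 10 CPM in HepABC HCC, bag3 among them, and 2 in no HCC. The median was 0.39 relative to all genes, against -0.90 for the ER list. In CreLox HCC calr3b stood at 29.9 and manf at 45.7 CPM, nearer to no HCC, and hsp90ab1 at 2101 CPM, nearer to HepABC HCC.

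The machinery of protein synthesis took a larger share. Ribosomal protein messages made up 24.2% of UMIs in HepABC HCC, 16.2% in no HCC and 24.9% in CreLox HCC. Single members differed little, with 8 of 82 at least 2-fold higher, below the 20.3% of all genes, and none lower. Their median was 0.19 relative to all genes. rpl12 had the highest ratio at 2.72 (2.66 to 2.79), with 4940.2 against 1814 CPM, followed by rpl13 at 4476 against 1725 CPM and rps4x at 4244 against 1734 CPM. faub, which encodes a ribosomal protein fused to a ubiquitin-like part, was lowest at 90.9 against 159 CPM, and rps28 had 1844 against 3022 CPM. Of 52 translation factors 15 were higher and 1 lower, against 20.3% and 9.12% of all genes. Of the 52, 3 were under 10 CPM in no HCC and 1 in HepABC HCC. eef1g and eef1b2, subunits of the exchange factor of elongation, had 1806 against 599 CPM and 1664 against 628 CPM, and eif4ebp3, which binds and holds back the cap-binding factor, had 206 against 49.4 CPM. The lower one was eif4a1a, an RNA helicase of initiation, at 43.2 against 93.4 CPM. Ribosome biogenesis had 8 of 26 higher and 1 lower, against the same shares, with a median of 0.45 relative to all genes. Of the 26, 4 were under 10 CPM in no HCC and 2 in HepABC HCC. In this list fbl, fibrillarin of the nucleolus, had 74.5 against 22.3 CPM and rrs1, an assembly factor, 8.04 against 18.9 CPM. Among 16 genes of tRNA charging and amino acid stress 4 were higher, near the 20.3% of all genes, and none was 2-fold lower, chac1, a glutathione-degrading stress enzyme, having 199.8 against 73.7 CPM.

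Messages of the mitochondrial genome took a smaller share. The 13 genes of the mitochondrial genome summed to 6.49% of UMIs in HepABC HCC, 8.89% in no HCC and 6.18% in CreLox HCC, and each of the 13 lay below the all-gene median. mt-co1, a catalytic subunit of cytochrome oxidase, had 6262 against 14504 CPM and mt-co2, its partner, 21775 against 24752 CPM. Per cell the mitochondrial share had a median of 5.94% in HepABC HCC, 8.46% in no HCC and 5.77% in CreLox HCC. This share is also used as a mark of cell quality, and its part in the lower values was not tested. Nuclear genes of the respiratory chain had a median of -0.39 relative to all genes. Of 97 compared 7 were lower and 3 higher, against 9.12% and 20.3% of all genes. The extremes were atp5mea, a subunit of ATP synthase, at 3.13 against 55.7 CPM, and cox6a1, a regulatory subunit of cytochrome oxidase, at 286 against 85.4 CPM. Mitochondrial ribosome and import genes had 12 of 82 higher, a share below the 20.3% of all genes, and 2 lower, and 13 of the 82 were under 10 CPM in no HCC. In the tricarboxylic acid cycle pdk2a, which shuts off pyruvate dehydrogenase, was higher at 20.8 against 3.71 CPM and idh1, the cytosolic isocitrate dehydrogenase, lower at 18.3 against 64.0 CPM.

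Plasma defence proteins held members on both sides. Of 27 complement and lectin genes 9 were at least 2-fold lower, against 9.12% of all genes. The 5 higher ones were near the 20.3% of all genes. The lower ones included the C3 copies c3a.2, at 167 against 1348 CPM, and c3a.3, at 175 against 1014 CPM, and c4, which acts before C3, at 34.7 against 234 CPM. crp2, a pentraxin of the acute phase, had 372 against 1736 CPM and crp3, the most abundant of the list, 3119 against 6307 CPM. The higher ones included another C3 copy, c3b.2, at 176 against 20.6 CPM, and cfh, factor H, which restrains the cascade, at 241 against 28.6 CPM, a ratio of 8.45 (6.94 to 10.4). masp1, a protease of the lectin pathway, had 40.6 against 7.43 CPM. For c3a.2, c3a.3 and cfh CreLox HCC had 659.7, 518 and 23.2 CPM. Reads of near-identical C3 and crp copies could have been split between them, so values of single copies are uncertain. cfd was lower at 15.4 against 106 CPM, but without cells of other types its log2 ratio went from -2.78 to -1.25 on 7 UMIs of no HCC. In HepABC HCC 94.5% of its UMIs sat in 1 cell, so its value there rests on that cell.

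Few clotting factors differed 2-fold. Of 22 compared, none was 2-fold higher and 2 were lower, against 20.3% and 9.12% of all genes. The lower ones were f13b, the carrier subunit of factor XIII, at 0.968 against 21.4 CPM and f7i, a factor VII relative, at 116 against 302 CPM. f13b was under 10 CPM in HepABC HCC and passed the filter through no HCC. f2, prothrombin, had 2188 against 1614 CPM and fga, a fibrinogen chain, 1394 against 1957 CPM. Among 22 serpins and other peptidase inhibitors 5 were higher and 1 lower, near the 20.3% and 9.12% of all genes. serpina7, a member of the family that in mammals carries thyroid hormone, had 3431 CPM in HepABC HCC against 992 in no HCC and 2259 in CreLox HCC. serpinb1, an intracellular inhibitor of neutrophil proteases, had 308 against 49.1 CPM. timp2a, an inhibitor of matrix metalloproteases, had 58.1 against 0.571 CPM on 2 UMIs in no HCC, a ratio of 102 (28.1 to 839.5). One of these UMIs was in the keratin-rich pair, and without cells of other types timp2a had 58.1 against 0.293 CPM. The lower one was ahsg2, a fetuin that keeps calcium phosphate dissolved, at 601 against 3222 CPM. The most abundant inhibitors lay on both sides of 1, with serpina1, the trypsin inhibitor of plasma, at 4015 against 6697 CPM and serpina1l, its relative, at 4664 against 3589.9 CPM.

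Metal and heme binding held the fourth largest loss of CPM of any gene. hpx, hemopexin, which clears free heme from plasma, had 1896 CPM in HepABC HCC against 10299.5 in no HCC, with 3794 in CreLox HCC. mt2, a metallothionein that binds zinc and copper, had 75.6 against 978 CPM and 1420.5 in CreLox HCC, and cpox, an enzyme of heme synthesis, 3.66 against 25.1 CPM. On the other side fth1a, the ferritin heavy chain, had 486 against 209 CPM and slc40a1, ferroportin, the exporter of iron, 24.5 against 3.43 CPM. hamp, hepcidin, which closes ferroportin, had 57.3 against 62.6 CPM, with an interval that held 1 around its ratio of 0.915 (0.797 to 1.06). Of 13 compared 3 were lower and 2 higher, against 9.12% and 20.3% of all genes. Of the 13, cpox was under 10 CPM in HepABC HCC and slc40a1 in no HCC. Among 31 antioxidant enzymes 2 were lower and 4 higher, against 9.12% and 20.3% of all genes. The lower ones were mt2 and sod1, the cytosolic superoxide dismutase, at 490.0 against 1232 CPM. The higher ones included txndc9, a thioredoxin-like cofactor of chaperonins, at 64.9 against 21.1 CPM and prdx6, a peroxiredoxin, at 272 against 119 CPM.

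Conjugating enzymes, which make foreign and endogenous compounds soluble, lay mostly below the median of all genes. Of 15 UDP-glucuronosyl- and sulfotransferases 7 were lower and 3 higher, against 9.12% and 20.3% of all genes. The median was -1.18 relative to all genes. Of the 15, 1 was under 10 CPM in HepABC HCC and 1, ugt2a7.2, in no HCC. ugt1a2, the most abundant, had 204 against 448 CPM, and ugt5a2 had the lowest ratio, 0.0507 (0.0339 to 0.0749). Against them sult1st3, a sulfotransferase, had 146 CPM in HepABC HCC against 12.6 in no HCC with 119 in CreLox HCC, and ugt2a7.2 had 26.9 against 2.00 CPM. None of 16 glutathione S-transferases was 2-fold higher and 4 were lower, against 20.3% and 9.12% of all genes. Of the 16, 2 were under 10 CPM in HepABC HCC, mgst1.1 and gstm.3, and passed the filter through no HCC. gstt1a, the most abundant, had 1847 against 3247 CPM and mgst1.1, a microsomal form, 7.58 against 28.6 CPM. gstm.3 was called lower at 4.17 against 30.0 CPM, but 103 of its 105 UMIs in no HCC came from the keratin-rich pair, and without cells of other types it had 0.930 against 0.585 CPM. In HepABC HCC 77.9% of its UMIs sat in 1 cell. Of 29 cytochromes P450 7 were higher and 6 lower, against 20.3% and 9.12% of all genes, and 5 were under 10 CPM in HepABC HCC and 4 in no HCC. cyp2aa4 had 0.875 against 24.9 CPM and cyp2x7 1.68 against 21.1 CPM, while cyp2x9 had 53.7 against 7.72 CPM, cyp2x8 18.2 against 4.29 CPM and cyp2r1, whose mammalian counterpart hydroxylates vitamin D, 33.3 against 8.001 CPM. adh8a, an alcohol dehydrogenase and the most abundant of 25 dehydrogenases and reductases, had 1896 against 4287 CPM.

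Carboxylesterases and paraoxonases held opposite extremes. ces3 had 64.6 CPM in HepABC HCC against 1336 in no HCC and 974 in CreLox HCC, while ces2 had 2598 against 866 CPM and 710.3. pla2g3, a secreted phospholipase, had 0.346 against 43.7 CPM. pon3.2, a paraoxonase, had 48.2 against 0.286 CPM on 1 UMI in no HCC, a ratio of 169 (30.3 to 6668), and pon2 had 54.8 against 16.9 CPM. Of 16 compared 3 were lower and 3 higher, against 9.12% and 20.3% of all genes. Of the 16, pla2g3 was under 10 CPM in HepABC HCC and pon3.2 in no HCC. Each passed the filter through the other library only.

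Amino acid breakdown held a few large differences. bhmt, which remakes methionine from betaine, had 9398 CPM in HepABC HCC against 3877 in no HCC and 6864 in CreLox HCC, the third largest gain of CPM of any gene. tdo2b, the first enzyme of tryptophan breakdown, had 342 against 61.4 CPM, and glud1a, glutamate dehydrogenase, 46.7 against 14.6 CPM. glula, glutamine synthetase, which is a β-catenin target in mammalian liver, had 36.7 against 4.00 CPM, with 5 of its 14 UMIs in no HCC in the keratin-rich pair. The lower members were cbsb and cth, which carry sulfur from methionine to cysteine, at 31.8 against 99.2 CPM and 33.9 against 76.6 CPM. In all 8 of 47 were higher and 2 lower, against the 20.3% and 9.12% of all genes.

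The polyamine list held the lowest ratio of any member of the 50 families. sat2a, a relative of spermidine acetyltransferases, had 0.875 CPM in HepABC HCC against 368 in no HCC, with 62.5 in CreLox HCC, a ratio of 0.00238 (0.00168 to 0.00329). Its copy sat2b had 14.3 against 9.72 CPM. odc1, the first enzyme of polyamine synthesis, had 6.33 against 22.9 CPM, and gatm, the first of creatine synthesis, 82.2 against 307 CPM. agmat, agmatinase, was the higher one of 14, at 93.0 against 23.1 CPM, against 5 lower. Of all genes 20.3% were higher and 9.12% lower. Of the 14, 3 were under 10 CPM in HepABC HCC, sat2a and odc1 among them, and passed the filter through no HCC. In no HCC 1 was under 10 CPM. The count is therefore no support for a difference of the list.

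Glycolysis was close to the median of all genes, and gluconeogenesis and glycogen lay below it. Of 14 glycolytic genes 2 were higher and 2 lower, against 20.3% and 9.12% of all genes. Of the 14, 1 was under 10 CPM in HepABC HCC and 1, aldoaa, in no HCC. aldoaa, the aldolase typical of muscle, had 57.9 against 6.00 CPM and 86.9 in CreLox HCC, with 11 of its 21 UMIs in no HCC in the keratin-rich pair and a log2 ratio of 4.30 in place of 3.27 without cells of other types. Among 18 genes of gluconeogenesis and glycogen 4 were higher, near the 20.3% of all genes, and none was 2-fold lower. The family median nevertheless lay -0.64 from that of all genes. g6pca.2, the catalytic part of glucose-6-phosphatase, had 943 against 399 CPM, ppp1r3ca, a glycogen-targeting subunit, 191 against 70.6 CPM, and foxo1a, a transcription factor that insulin keeps out of the nucleus, 34.8 against 10.9 CPM.

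Transcription factors of hepatocytes stood above the all-gene median in 13 of 20. foxa2, a pioneer factor of liver development, had 67.5 CPM in HepABC HCC against 7.43 in no HCC and 19.1 in CreLox HCC, a ratio of 9.09 (6.19 to 13.9). nr1d2a, a clock repressor, had 74.3 against 13.1 CPM and creb3l3a, an ER-bound factor of lipid and acute phase genes, 98.3 against 19.1 CPM. hnf4a, the master regulator of hepatocyte genes, was close to level at 84.3 against 78.9 CPM. Lower were klf15, which is raised by glucocorticoids and fasting in mammals, at 9.21 against 25.1 CPM, and zbtb16a, a zinc finger repressor, at a ratio of 0.480 (0.396 to 0.585). In all 8 were higher and 2 lower, against 20.3% and 9.12% of all genes. Of the 20, 6 were under 10 CPM in no HCC, foxa2 among them, and passed the filter through HepABC HCC. The counts are therefore no support for a difference of the list.

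The immediate early genes had 10 of 26 higher and none 2-fold lower, against 20.3% and 9.12% of all genes. Of the 26, 2 were under 10 CPM in no HCC, klf6a and jund, and passed the filter through HepABC HCC. klf6a had 55.8 against 6.86 CPM, nfkbiab, which holds NF-κB in the cytosol, 99.6 against 15.1 CPM, and jund, an AP-1 subunit, 17.3 against 3.14 CPM. fosab, a Fos protein and the most abundant of the list, had 520.5 against 416 CPM, and gadd45ba, a stress and growth arrest gene, 359 against 107 CPM. junba, another AP-1 subunit, and ier2a lay on the other side of 1, with 197 against 257 CPM and 114 against 138 CPM. Such genes are known to respond to the dissociation of tissue, which both livers underwent.

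Keratins of simple epithelia were higher in HepABC HCC. krt18 and krt8, which pair in the filaments of hepatocytes and other simple epithelia, had 2007 CPM in HepABC HCC against 128 in no HCC and 1186 CPM in HepABC HCC against 158 in no HCC. Their ratios were 15.7 (14.3 to 17.2) and 7.51 (6.90 to 8.18), and CreLox HCC stood between, at 877 and 651 CPM. krt92 had 139 against 45.4 CPM. The other 3 of the 6 keratins were lower, krt4 at 0.230 against 25.1 CPM, krt94 at 3.13 against 36.6 CPM and krt91 at 2.74 against 18.9 CPM, and rested on the keratin-rich pair of no HCC cells. Outside cells of other types no HCC held 2, 4 and 1 UMIs of these 3 genes. Without cells of other types the keratin median lay 2.93 above that of all genes in place of 0.91 below it.

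S100 genes were higher in HepABC HCC, and here too the same pair of cells held nearly all of the no HCC UMIs. s100a10a, a partner of annexin A2 at the membrane in mammals, had 431 CPM in HepABC HCC against 17.1 in no HCC, s100a10b 356 CPM in HepABC HCC against 57.1 in no HCC, and icn, a calcyclin-like S100 protein, 516 CPM in HepABC HCC against 43.4 in no HCC. In CreLox HCC they stood at 1473, 735 and 719 CPM. Outside cells of other types the no HCC cells held 0, 3 and 7 UMIs of the 3 genes, against 18520, 15152 and 22199 in HepABC HCC, so that icn went from a log2 ratio of 3.57 to 7.98 and s100a10a to at least 490.5-fold higher by the limit of 3 counts over the library. anxa1a, a phospholipid-binding annexin, turned from lower at 10.1 against 35.7 CPM to 7.54 against 0.585 CPM without them, on 2 UMIs in no HCC. anxa4, an annexin of secretory epithelia, had 591 against 164 CPM and a log2 ratio of 1.85, which was 1.84 without them. lgals2b, a galectin, had 1013 CPM in HepABC HCC against 10.9 in no HCC and 486 in CreLox HCC, a ratio of 93.3 (67.9 to 132). Of its 38 UMIs in no HCC 55.3% sat in a further single cell.

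Actin and motility genes had 12 of 31 higher and none 2-fold lower, against 20.3% and 9.12% of all genes. Of the 31, 5 were under 10 CPM in no HCC. flna, filamin, which crosslinks actin, had 51.4 CPM in HepABC HCC, 72.8 in CreLox HCC and 0 UMIs in no HCC, at least 60.0-fold higher by the limit of 3 counts over the library. myl12.1, a myosin light chain, had 195 against 54.0 CPM, and tagln2, an actin-bundling protein, 95.7 against 8.57 CPM, with all of its 30 UMIs in no HCC in the keratin-rich pair, against 4094 UMIs left in HepABC HCC without cells of other types. actb2, a β-actin and the most abundant of the list, had 1672 against 1546 CPM. Of 16 junction genes 7 were higher and 1 lower, against 20.3% and 9.12% of all genes. Of the 16, 6 were under 10 CPM in no HCC and passed through HepABC HCC. cldnc, a claudin, had 74.7 against 13.7 CPM, cdh1, E-cadherin, 41.6 against 7.72 CPM, and pkp3b, a desmosome plaque protein, 23.1 against 4.57 CPM. ctnnb1, the endogenous β-catenin, had 221 CPM in HepABC HCC against 47.4 in no HCC and 107 in CreLox HCC, and reads of its copy or of the Xenopus transgene could have been split with it. Among 5 tubulins none was 2-fold higher and 1 was lower, tubb2b at 7.95 against 45.7 CPM.

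Some genes used as markers of bile duct cells moved with these groups. The cholangiocyte list of 11 markers summed to 2820 CPM in HepABC HCC and 334 CPM in no HCC. Per cell its median was 24.3 of each 10000 UMIs (lowest to highest cell 3.08 to 102) against 2.80 (lowest to highest cell 0 to 63.8). Most of it was krt18 at 2001 against 127 CPM and anxa4 at 589 against 163 CPM, with cldnc at 74.5 against 13.6 CPM and cldn15la listed in HepABC HCC alone. The list did not move as a whole, since krt4, with 0.230 against 24.9 CPM, her6, with 1.102 against 3.40 CPM, and mmp14b, with 0.873 against 1.98 CPM, were higher in no HCC. The defining markers were near 0, with epcam at 0.666 CPM in HepABC HCC and 0.283 in no HCC, sox9b at 0.0459 and 0.283, and cdh17 at 3.51 and 0 UMIs in no HCC. Their part in the values of these groups was not tested. In HepABC HCC 1867 of 1938 cells had 10 or more of each 10000 UMIs from this list, while all but 1 of the 1938 had 500 or more from the hepatocyte list.

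Of 14 antigen presentation and interferon genes 4 were higher and 2 lower, against 20.3% and 9.12% of all genes. Of the 14, 3 were under 10 CPM in no HCC and 2 in HepABC HCC, stat2, irf2 and psmb9a among them. stat2 and irf2, factors of the interferon response, had 29.3 against 5.43 CPM and 19.8 against 3.43 CPM, and mhc1zba, a class I molecule, 144 against 61.7 CPM. The inducible proteasome subunits psmb9a and psmb12 had 5.34 against 28.0 CPM and 10.6 against 42.9 CPM. Elsewhere in the proteasome and ubiquitin list 8 of 62 were higher, below the 20.3% of all genes, and 11 were under 10 CPM in no HCC. ubc, a polyubiquitin gene, led the higher ones at 122 against 37.4 CPM. The chemokine ccl39.2 had 84.8 CPM in HepABC HCC against 1524 in no HCC and 134 in CreLox HCC, whereas cxcl20 had 166 against 49.1 CPM. Immune markers summed to 61.1 CPM in HepABC HCC and 57.8 in no HCC, and without cells of other types the log2 ratio of ccl39.2 was -4.18, against -4.17 with them.

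Hormone-related messages were led by igfbp1a, a binding protein of insulin-like growth factors that fasting raises in mammals, with 951 CPM in HepABC HCC against 172 in no HCC and 542 in CreLox HCC. agt, angiotensinogen, had 501 against 174 CPM and igf2a 101 against 41.1 CPM. On the other side dio2, which activates thyroid hormone, had 36.2 against 89.2 CPM, and igfals, which stabilises growth factors in blood, 35.5 against 73.7 CPM. vtg5, a yolk precursor made under oestrogen and known from females, had 111 against 6.29 CPM in these male livers, with 10.2 in CreLox HCC. Of 14 compared 4 were higher and 2 lower, against 20.3% and 9.12% of all genes. Of the 14, 2 were under 10 CPM in no HCC, vtg5 among them, and passed the filter through HepABC HCC. Cell cycle genes were scarce, with 9 of 49 passing the filter, ccng2 through HepABC HCC only, and their counts stand against the same shares. ccng2 and hmgb2b were the 2 higher ones, at 24.3 against 7.14 CPM and 37.0 against 12.6 CPM, none was 2-fold lower, and ccnd1, cyclin D1, a known Wnt target in mammals, had 12.8 against 18.9 CPM.

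The highest ratio of any gene with a mean of 50 CPM or more belonged to rnasel2, a secreted RNase, with 1057 CPM in HepABC HCC against 6.57 in no HCC and 6.15 in CreLox HCC, a ratio of 161 (107 to 254). Its neighbour in the family, rnasel3, had 916 against 882 CPM. cd63, a membrane protein of late endosomes, had 219 against 15.1 CPM and psap, which supplies activators of lysosomal enzymes, 247 against 46.9 CPM, the 2 higher ones of 24 lysosomal genes, against scarb2a, a lysosomal receptor, at 20.5 against 63.4 CPM. Solute carriers had 12 of 55 lower and 8 higher, against 9.12% and 20.3% of all genes. Of the 55, 5 were under 10 CPM in HepABC HCC and 7 in no HCC. They ran from slc26a2, a sulfate transporter, at 4.33 against 54.9 CPM to slc25a36a, a mitochondrial carrier of pyrimidine nucleotides, at 20.2 against 1.43 CPM. In the lists not described so far, splicing and RNA-binding proteins had 4 of 56 higher and 3 lower, ABC transporters 1 of 10 higher and 2 lower, and matrix genes 2 of 6 higher and none lower. These counts stand against the same 20.3% and 9.12% of all genes.

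Several of the largest differences belonged to genes outside the lists. afp4.1, an antifreeze-type protein gene, had 23072 CPM in HepABC HCC against 3133 in no HCC and 20887 in CreLox HCC and gained more CPM than any other gene. CR383676.1, a transcript with no gene name, had 18375 CPM in HepABC HCC against 7571 in no HCC, and ppdpfb, named after a factor of pancreatic development, 2758 CPM in HepABC HCC against 125 in no HCC. tm4sf4, a tetraspanin-like membrane protein, had 423 CPM in HepABC HCC at a ratio of 19.2 (15.4 to 24.4), and tcima, whose human counterpart was named after thyroid cancer, had 165 against 6.86 CPM. Among unnamed genes, si:dkeyp-73d8.6 had 1471 against 103 CPM, and zgc:162608 554 against 57.1 CPM. On the lower side BX001030.1 had 7.16 against 1516 CPM, si:dkey-114l24.2 0.668 against 149 CPM and si:dkey-16p21.8 14.1 against 412 CPM. si:ch211-194p6.12 had 0.115 against 109 CPM.

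Related genes within a family could stand on opposite sides, as did ces2 and ces3, c3b.2 and c3a.2, apoa4b.1 and apoa4b.2, and cyp2x9 and cyp2x7. Such copies can be close in sequence, and where they share reads the split between them is uncertain.

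Whether the library values held across cells was read from the CPM of single cells. For thrsp the median cell had 0 CPM in HepABC HCC (10th to 90th percentile 0 to 165) and 8114 CPM in no HCC (2728 to 15862), and CreLox HCC had 73.1 (0 to 1002). For hpx the values were 1632 (372 to 3603) and 9348 (6622 to 14358). thrsp lay below the 10th percentile of no HCC in 100% of HepABC HCC cells and hpx in 99.3%. ppdpfb lay above the highest cell of no HCC in 99.7% of HepABC HCC cells, rnasel2 in 99.3%, afp4.1 in 98.6% and krt18 in 80.9%. The 4 genes came from the ends of the ranking of the same UMIs, so this is a description of its spread over cells.

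Other genes were uneven among the HepABC HCC cells. s100a10a ran from 0 CPM at the 10th percentile over a median of 128 to 1189 at the 90th, and in CreLox HCC from 0 over 50.4 to 5672. lgals2b ran from 75.8 over 804 to 2229 in HepABC HCC. Between the same percentiles rpl12, a ribosomal protein of higher level, ran from 3918 to 5949 in HepABC HCC and from 985 to 2341 in no HCC. Counting error widens the spread of genes with few UMIs per cell, and its part here was not tested.

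**Figure D5:**
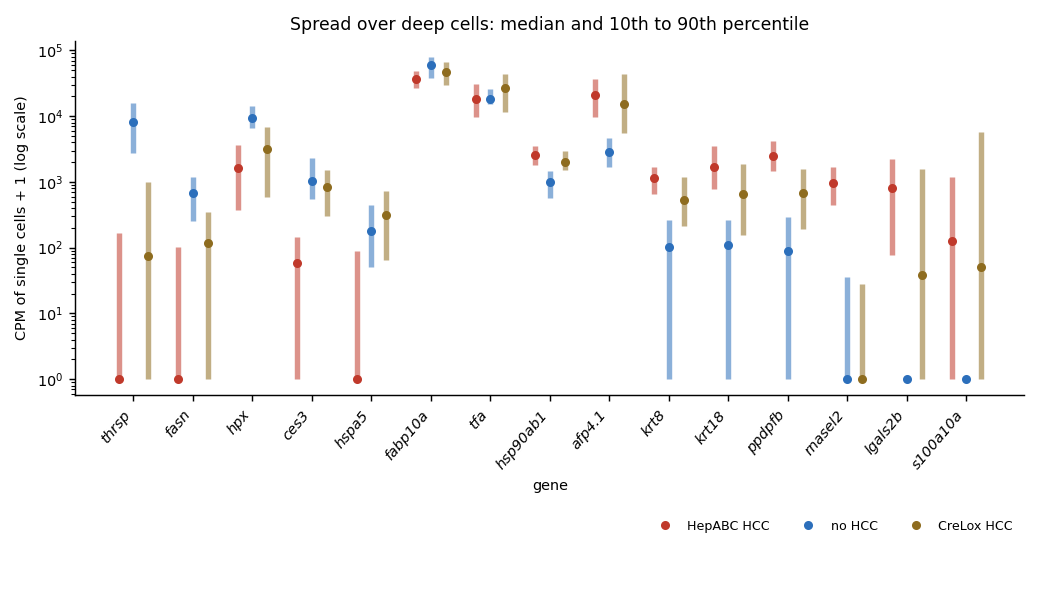
CPM of single deep cells plus 1 (vertical log axis) for 15 genes (horizontal axis) in HepABC HCC (red, 1938 cells), no HCC (blue, 213) and CreLox HCC (brown, 186). Points are medians and bars run from the 10th to the 90th percentile of cells, so that the bars of HepABC HCC and no HCC do not meet for thrsp, hpx or ppdpfb, while those of tfa overlap.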

How the data were processed

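For each library the authors deposited a matrix of whole UMI counts, 1 value per gene and barcode, without normalization. Per the labels and methods they ran Cell Ranger 2.2.0 against GRCz11 with transgene sequences added, kept barcodes by EmptyDrops and removed cells with outlying quality, which sets the barcodes that count as cells. The rule by which a gene is listed in a library's file is not given in the sources used here. Symbols are the files', and no coordinates or sequences were used. Cells with at least 10000 UMIs were kept, UMIs summed per gene and scaled to CPM over shared genes (Python 3.11.15, numpy 2.4.6, scipy 1.17.1). No other cells were removed. Intervals are exact, conditional on the summed count, at 95%. Against 0 UMIs a limit of 3 counts was used. Without replicates, genes at least 2-fold apart among those with a mean CPM of at least 10 are counted and nothing is tested. The intervals and the 2-fold calls were checked on counts simulated with counting error only, which hold no spread between cells or animals.

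The cells, families and tests were chosen with earlier results of these data known. Named genes were, per family, the most abundant member and the 3 highest and 3 lowest ratios at a mean CPM of at least 10, members listed in 1 library only, and in the whole ranking the 20 highest and 20 lowest ratios at a mean CPM of at least 50 and the 15 largest gains and losses of CPM. Families came from symbol lists or patterns, and 4 symbols of other genes that the patterns caught were taken out. Outside this rule hspa5, hsp90b1, c3a.3, crp2, eef1b2, f2, fads2, fga, gadd45ba, hamp, hnf4a, igf2a, serpina1l, sat2b, marker genes and some members in the plots were named after their values were seen. A few named genes are not reported here. Alternatives were cell depth, cell type filters, TMM factors (edgeR 4.0.16), thinning, means over cells, and CPM filters.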

Additional observations from a re-analysis of the deposited data

Results flagged for a closer look

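Signals also appeared in rows that could not enter the comparison because the other library does not list them. The genes listed for HepABC HCC alone numbered 2954 and held 0.299% of its deep UMIs, and the 627 listed for no HCC alone held 0.905%, nearly all EBFP. fabp1b.1, a liver-type fatty acid binding protein, had 55562 UMIs in 1904 of the HepABC HCC deep cells, 1276 CPM of all UMIs, and 3305 CPM in CreLox HCC. It has no row in no HCC, so no fold is given. cldn15la, a claudin, had 6462 UMIs in HepABC HCC, 148 CPM, and 121 CPM in CreLox HCC, again with no row in no HCC. Among the 50 families 211 members were listed for HepABC HCC alone, 4 of them at 10 CPM or more, which besides these 2 were slc29a4, a nucleoside transporter, at 21.6 CPM and sult1st2, a sulfotransferase, at 13.2 CPM. The 16 listed for no HCC alone were all under that level, with scd, a fatty acid desaturase, the highest at 20 UMIs.

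The mCherry rows are spelled differently between libraries and were kept apart. The row mCherry had 121 UMIs in 28 of 1938 deep cells of HepABC HCC, or 2.78 CPM, and up to 23 UMIs in 1 cell. The row mcherry had 11 UMIs in 10 of 213 deep cells of no HCC, or 3.11 CPM, and at most 2 in 1 cell. A reporter of Wnt signalling was stated for the HepABC fish alone. By the paper's methods the lox-switch transgene of the no HCC and CreLox fish also carries mCherry, as an eye marker under the cryaa promoter. Which sequence each row stands for was not tested.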

How the results depend on the processing

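No paired analysis was possible because each group had 1 library and no values were tested. The median log2 ratio of all genes moved from 0.33 to 0.22 with cells of at least 5000 UMIs, 0.10 without mitochondrial and the 20 top genes in the scale, 0.46 at a mean CPM of at least 1, 0.14 at 50, and turned to -0.0074 under TMM factors. Genes at least 2-fold higher and lower numbered 339 and 433 under TMM factors, 2405 and 752 at a mean CPM of 1, 163 and 108 at 50, and 2709 and 1415 with 1 UMI in each library. At 4-fold there were 149 and 100. Families at least 0.5 below all genes went from 16 to 10 at a mean CPM of 50 and to 7 without cells that had 10 of each 10000 UMIs from any list of another cell type. That last setting left 49 cells of HepABC HCC and 95 of no HCC, since krt18 and anxa4 stand in the cholangiocyte list and fn1b, a hepatocyte message, in the thrombocyte list. Families at least 0.5 above went from 4 to 10 with cells of at least 20000 UMIs, 12 at a mean CPM of 50, 2 at 1 and 1 with 1 UMI in each library. The keratin median turned from 0.91 below all genes to 2.76 above with cells of at least 20000 UMIs, 2.09 without any list, 2.77 at a mean CPM of 50 and 2.93 without cells of other types, an alternative chosen after seeing the data. The S100 median turned to -0.12 with 1 UMI in each library. The log2 ratio of cfd turned to 4.43 with cells of at least 20000 UMIs, where no HCC had no UMI. Over all deep cells of HepABC HCC 94.5% of the cfd UMIs sat in 1 cell. Without any list those of apobb.2, dio2 and igfals turned to 0.27, 0.20 and 0.11. The 4-fold count and the filters change the genes counted by construction, and for the other moves the cause was not tested. No library could be left out, and the depth of no HCC limits genes under 0.857 CPM there.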
